A study of Mus musculus with 2 samples.

Results

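Cell cycle genes were followed here as 40 members of the 32285 genes listed for 2 single-cell libraries of mouse central nervous system. They were taken by symbol, and all 40 were found in both libraries. By known role, 22 act in G2 phase and mitosis (G2/M), 13 act in S phase, when DNA is copied, and 5 are broad members that dividing cells use heavily but that other cells use too. In the GENCODE M21 annotation (GRCm38) all 40 are protein-coding genes, spread over 17 chromosomes.

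Both libraries came from CD45.1 recipient mice conditioned with busulfan (4 doses of 25 mg/kg), which clears room in the marrow for transplanted cells. The mice had received haematopoietic stem and progenitor cells intravenously at 1 donor per recipient. One library was labelled Cx3cr1-/+ (heterozygous) and the other Cx3cr1+/+ (wild type), and the tissue and cell labels (CNS, Microglia-like cell) were the same for both. Cx3cr1 encodes the fractalkine receptor of microglia and monocytes. The protocol text names Cx3cr1-/+ donors, sorted as GFP+ and GFP- cells from the lineage-negative pool, for both libraries. Donors of the wild-type library, ages, times and the number of mice per library were not given in the sources used here. With 1 library per genotype there was no test between genotypes, and every interval below is at 95% and covers counting error only.

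A dividing cell copies its DNA in S phase and separates the copies in mitosis. S-phase genes include the MCM helicase that opens origins (Mcm2 to Mcm7), the sliding clamp Pcna and the enzymes that make nucleotides (Rrm1, Rrm2, Tyms, Tk1, Dut), and many are switched on by E2F factors. G2/M genes include the mitotic kinases and cyclins, spindle motors and kinetochore proteins, and many are driven late in the cycle by the MuvB complex with B-Myb and FoxM1. Microglia divide slowly at rest and more after depletion, whereas mature neutrophils have left the cycle and their bone marrow precursors have not.

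Stretches before the start sites of 5 members are printed to show examples of the promoter words searched, with matches in capitals. The words searched on both strands were the cell cycle homology region (CHR) TTTGAA, the CCAAT box that NF-Y binds (ATTGG on the other strand), and 4 forms of the E2F site, namely TTTCCCGC, TTTCGCGC, TTTGCCGC and TTTGGCGC. Forms of the E2F site can overlap each other. Each stretch is the 250 bases before the RefSeq start (GRCm38.p6), 5′ to 3′ on the strand of the gene, and these members were chosen for the words they hold. They are Top2a (chr11:99024190-99024439, minus strand), Mki67 (chr7:135716380-135716629, minus strand), Cks2 (chr13:51644982-51645231, plus strand), Mcm5 (chr8:75109259-75109508, plus strand) and Mcm6 (chr1:128359706-128359955, minus strand).
Top2a: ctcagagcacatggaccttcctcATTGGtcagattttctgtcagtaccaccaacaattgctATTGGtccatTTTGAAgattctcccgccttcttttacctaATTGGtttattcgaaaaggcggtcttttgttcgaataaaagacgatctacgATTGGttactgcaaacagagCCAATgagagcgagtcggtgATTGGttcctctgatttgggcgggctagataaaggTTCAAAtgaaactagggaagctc
Mki67: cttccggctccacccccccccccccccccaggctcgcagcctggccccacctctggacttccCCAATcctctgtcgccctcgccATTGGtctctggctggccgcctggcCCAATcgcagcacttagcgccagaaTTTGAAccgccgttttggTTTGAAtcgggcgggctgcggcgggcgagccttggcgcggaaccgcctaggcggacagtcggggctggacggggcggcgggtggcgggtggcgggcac
Cks2: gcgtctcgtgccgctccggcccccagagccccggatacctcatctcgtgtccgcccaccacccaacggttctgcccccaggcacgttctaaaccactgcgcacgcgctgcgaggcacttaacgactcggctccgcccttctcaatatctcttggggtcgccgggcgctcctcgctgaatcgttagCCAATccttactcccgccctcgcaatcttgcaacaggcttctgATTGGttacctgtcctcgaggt
Mcm5: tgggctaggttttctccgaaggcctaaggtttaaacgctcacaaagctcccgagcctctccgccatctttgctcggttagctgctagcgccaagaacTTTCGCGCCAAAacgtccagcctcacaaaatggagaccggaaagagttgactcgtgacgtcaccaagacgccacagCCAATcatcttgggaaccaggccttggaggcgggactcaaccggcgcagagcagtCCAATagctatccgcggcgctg
Mcm6: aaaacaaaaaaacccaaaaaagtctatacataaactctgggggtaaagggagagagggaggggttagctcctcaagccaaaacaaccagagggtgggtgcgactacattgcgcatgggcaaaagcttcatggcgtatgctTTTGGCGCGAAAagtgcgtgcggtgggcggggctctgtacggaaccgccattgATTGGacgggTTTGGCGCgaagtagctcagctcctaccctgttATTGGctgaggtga
Top2a and Mki67, a topoisomerase and a protein that coats mitotic chromosomes, each show 2 CHR words. Cks2, a small binding partner of cyclin-dependent kinases, shows 2 CCAAT boxes and no CHR word, and Mcm5 and Mcm6 show 2 and 3 E2F words.

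The promoter table held 34 of the 40 members, in 35 windows running from 250 bases before to 50 after the start (Mcm7 has 2 windows). Mcm4, Aurkb, Stmn1, Ccna2, Gins2 and Tpx2 had no entry. The CHR word lay in 13 of 19 G2/M windows (68.4%), 1 of 12 S windows (8.33%) and 17.9% of all 32851 windows of this length. The CCAAT box lay in 17 G2/M windows (89.5%) and 9 S windows (75%), against 37.4% of all windows. An E2F word lay in 4 S windows (33.3%), those of Mcm3, Mcm5, Mcm6 and one of Mcm7, in 1 G2/M window (Cdk1, the mitotic kinase) and in 2.27% of all windows. The G2/M members without a CHR word were Birc5, Ccnb1, Cenpe, Nusap1, Bub1 and Cks2. These matches describe the sequence and are not binding sites.

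The deposited libraries held 17828344 UMIs (unique molecular identifiers, 1 per captured transcript) in 1837 barcodes (heterozygous) and 22062823 UMIs in 2359 barcodes (wild type). Barcodes with fewer than 500 genes or with 10% or more mitochondrial UMIs were left out, leaving 1489 and 1949 cells with medians of 6880 and 6637 UMIs. The cells were sorted into 14 clusters without using the members. Of these, 13 could be named from marker genes, and 2 were microglia-like, 1 led by P2ry12 and 1 by Syngr1 (276 and 315 cells). By these markers most cells were not microglia-like, and what the label Microglia-like cell covers was not settled. Clusters also resembled neutrophils (led by Stfa2l1 or by Ltf), monocytes (led by Vcan or by Ace), dendritic cells and border-associated macrophages (led by Gpnmb). Others resembled natural killer (NK) cells, mast cells or basophils, endothelium, choroid plexus and oligodendrocytes. A cluster led by Ctsk, Acp5 and Elane stayed unnamed. The name of the Gpnmb cluster depended on the clustering: at a resolution of 1.0 its 207 Gpnmb-led cells stayed unnamed, and 31 cells apart from them carried the border macrophage genes Cd209f, Cbr2, Lyve1 and Folr2. The Gpnmb-led cells also stayed unnamed with coarser clustering, with the members kept in and with a stricter cell filter. The 2 libraries shared 339 barcodes, of which 255 and 198 were among the kept cells, and 101 of the 137 cells of the Ctsk cluster and 72 of the 75 choroid plexus-like cells carried one. Values are with the shared barcodes unless stated otherwise, and some are given without them too. The folds in dividing cells are given only with them. The cause of the sharing was not tested.

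About 10% of the cells carried several mitotic transcripts at once. To compare cells at 1 depth, each cell with at least 2000 UMIs was thinned to 2000, and a cell with at least 3 different G2/M members was called dividing. This is a range cut from a count and not a cell type. It held 136 of 1227 heterozygous cells (11.1%, interval 9.38 to 12.98) and 165 of 1643 wild-type cells (10.0%, 8.63 to 11.6), and the intervals overlapped. Without the shared barcodes the shares were 9.68% and 9.28%. Before thinning they were 25.7% and 22.5%, so the share depends on depth. The classes described below made up different parts of the 2 libraries, and the effect of this on the shares was not tested. Near the limit, 64 and 77 cells had exactly 2 G2/M members and 34 and 44 exactly 3, while 56 cells in each library had at least 7.

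**Figure D1:**
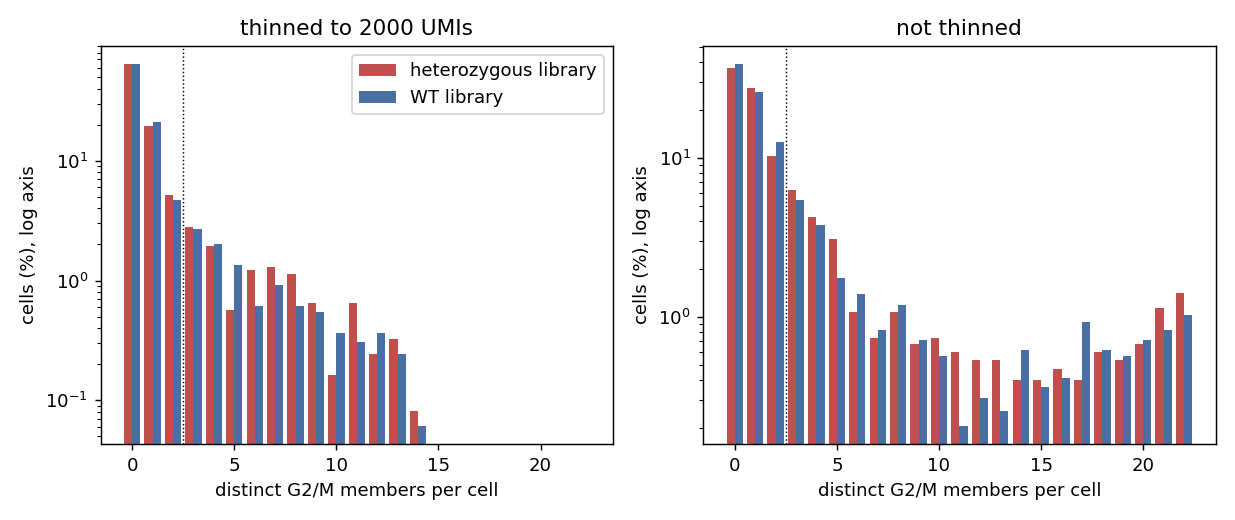
Percent of cells (log axis) by the number of distinct G2/M members per cell, in cells thinned to 2000 UMIs and in all kept cells unthinned, for each library, with the dotted line at the limit of 3. After thinning, 64.1% of cells in each library had none and the highest cell in each had 14.

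Cells with at least 3 S members were fewer, with 84 of the heterozygous (6.85%, 5.50 to 8.41) and 91 of the wild-type cells (5.54%, 4.48 to 6.76). Both kinds of member were at 3 or more in 40 cells of each library. Without the shared barcodes the S shares were 5.86% and 5.12%.

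Dividing cells were found in most classes, and their share differed by class. Taking both libraries, they made up 50 of 245 Vcan monocyte-like cells (20.4%, 15.5 to 26.0), 62 of 336 Ltf neutrophil-like cells (18.5%, 14.5 to 23.0), 14 of 76 NK cell-like cells (18.4%, 10.5 to 29.0), 32 of 211 Syngr1 microglia-like cells (15.2%, 10.6 to 20.7) and 56 of 381 dendritic cell-like cells (14.7%, 11.3 to 18.7). The intervals of these 5 classes overlapped, so their order was not resolved. Without shared barcodes the shares were 18.1% (Vcan), 16.7% (Ltf), 17.6% (NK), 15.2% (Syngr1) and 13.3% (dendritic cell-like). The 21 mast cell or basophil-like cells held 7 dividing cells (33.3%, 14.6 to 57.0). P2ry12 microglia-like cells held 20 of 249 (8.03%, 4.98 to 12.1), an interval below those of the Vcan and Ltf classes and overlapping those of the Syngr1, NK and dendritic cell-like classes. Without shared barcodes the P2ry12 share was 8.47% (5.25 to 12.8), and its interval then overlapped that of the Ltf class (12.7 to 21.3).

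The Stfa2l1 neutrophil-like cluster, led by genes of mature neutrophils, served as background, a choice made after the values were seen. The cluster also carried transcripts of the C1q complement genes, given below, and whether it is free of other cell types was not tested. It held 24 of 389 (6.17%, 3.99 to 9.04) at a median of 9389 UMIs per cell, against 9428 in the P2ry12 microglia-like cells, whose interval overlapped it. The Ace monocyte-like cells (7 of 537, 1.30%, 0.526 to 2.67) lay below it. The Gpnmb macrophage-like (9 of 220, 4.09%, 1.89 to 7.62) and endothelial-like cells (1 of 72, 1.39%, 0.0352 to 7.50) overlapped it. None of these shares was above the background. No choroid plexus-like cell of 68 qualified, which by the limit of 3 counts of the total allows a share of up to 4.41%. Only 2 of the 68 were left without the shared barcodes, and no limit is given from them. The oligodendrocyte-like cells, 10 of them in the heterozygous library only, held none, which by the same limit allows up to 30%. In the Ctsk cluster the share was 19 of 55 (34.5%), and without shared barcodes it was 2 of 30 (6.67%).

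**Figure D2:**
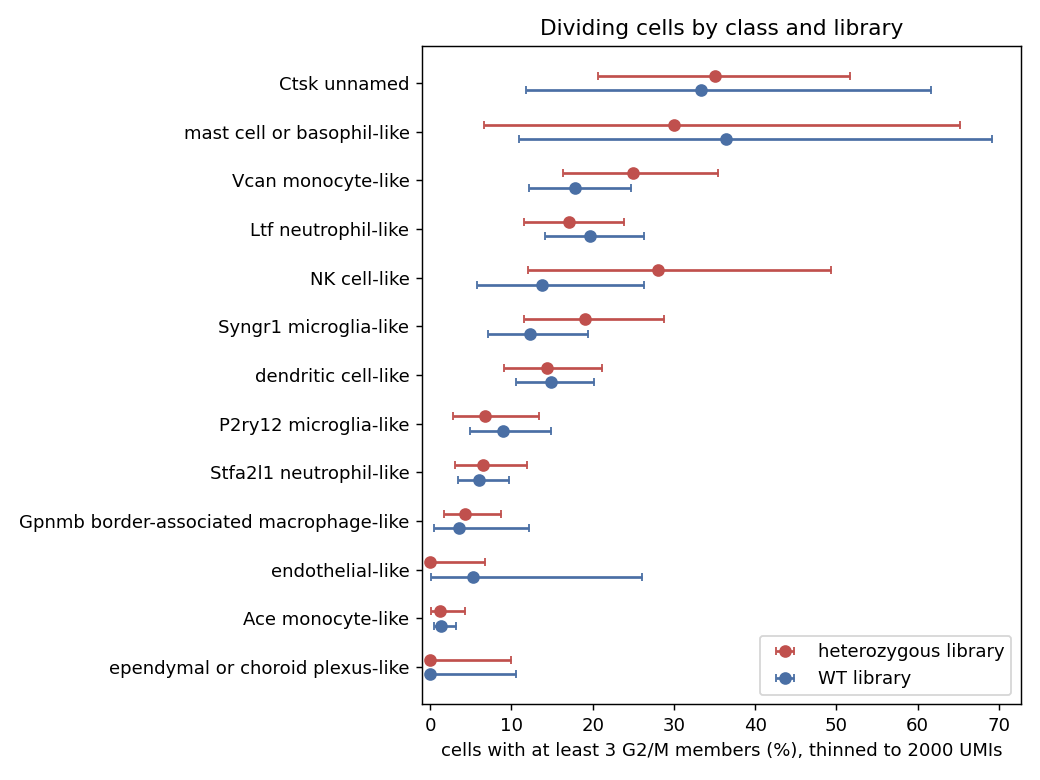
Share of cells with at least 3 G2/M members by class and library, after thinning to 2000 UMIs, as points with 95% Clopper-Pearson intervals (counting error only). The Vcan monocyte-like cells lie at 25.0% and 17.8%, the Ace monocyte-like cells near 0, and within each class shown the intervals of the 2 libraries overlap (oligodendrocyte-like cells are left out).

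Between the libraries the share did not separate in any class. Syngr1 microglia-like cells had 17 of 89 dividing in the heterozygous library (19.1%, 11.5 to 28.8) and 15 of 122 in the wild type (12.3%, 7.05 to 19.5). P2ry12 microglia-like cells had 7 of 104 (6.73%) and 13 of 145 (8.97%). The Ltf neutrophil-like cells had 17.1% and 19.7% and the dendritic cell-like cells 14.4% and 14.9%. By S members, over both libraries, at least 3 were found in 29 of 245 Vcan monocyte-like cells (11.8%), 43 of 381 dendritic cell-like cells (11.3%), 14 of 211 Syngr1 cells (6.64%), 19 of 336 Ltf neutrophil-like cells (5.66%), 11 of 249 P2ry12 cells (4.42%) and 3 of 537 Ace monocyte-like cells (0.559%). They were also found in 7 of 21 mast cell or basophil-like cells (33.3%), 8 of 76 NK cell-like cells (10.5%) and 14 of 220 Gpnmb macrophage-like cells (6.36%, 3.52 to 10.5), against 9 of 389 cells (2.31%, 1.06 to 4.35) of the Stfa2l1 background. The intervals of the Gpnmb cells and the background overlapped.

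Most mitotic transcripts came from the few dividing cells. Among cells with at least 2000 UMIs, the dividing cells held 75.2% (heterozygous) and 73.2% (wild type) of the G2/M UMIs. They held 40.6% and 38.3% of the S UMIs there, while holding 16.8% and 16.3% of all UMIs there. The rule chose them for G2/M members, so the first pair is a description. Dividing cells were deeper, with medians of 16321 and 16241 UMIs against 8658 and 7810 in other cells with at least 2000 UMIs. The part of depth was not tested. A doublet caller marked 0 cells in either library, with median scores of 0.0141 and 0.0232 in dividing cells against 0.00935 and 0.0126 in all cells, and the part of doublets was not tested.

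The G2/M members themselves chose the dividing cells, so their shares there are a description and not a ranking. Each share is again of the UMIs in cells with at least 2000 UMIs. The mitotic kinase Plk1 and the ubiquitin ligase partner Ube2c had 85.3% and 85.0% of their heterozygous UMIs in dividing cells. Of their wild-type UMIs 83.1% and 82.9% lay there. Nusap1 had 88.8% (heterozygous) and 85.8% (wild type) there. Mki67 had 77.1% and 82.1% there and Top2a 80.0% and 77.7%. Cks2 stood lowest, with 47.0% and 38.5%, followed by the spindle protein Kif23 with 53.4% and 54.2% and the centromeric histone Cenpa with 65.3% and 67.5%. Among S members the range was wide, from Rrm2 (70.6% and 73.1%), the regulated subunit of ribonucleotide reductase, down to Pcna (26.1% and 25.5%), which also serves DNA repair. Most Pcna transcripts were therefore outside the cells called dividing by G2/M members. That call leaves out 44 heterozygous and 51 wild-type cells that had at least 3 S members but fewer than 3 G2/M members.

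Cks2 and Pcna also went apart from the other members by class. In Ace monocyte-like cells, which resemble patrolling monocytes, Cks2 had 201 of 373 G2/M UMIs in the heterozygous library (53.9%) and 361 of 773 in the wild type (46.7%), against 12.4% and 14.1% over all kept cells. A Cks2 UMI was seen in 22.8% (16.6 to 29.9) and 20.8% (16.8 to 25.3) of thinned Ace cells, while Top2a was seen in 2.99% and 3.24% and Mki67 in 1.80% and 0.811%. In the Stfa2l1 neutrophil-like background Cks2 was seen in 13.7% and 13.2%, and the wild-type interval there (9.26 to 18.0) overlapped that of the Ace cells. Pcna made up 48.3% and 45.4% of the S UMIs of Ace cells, against 20.6% and 21.9% over all kept cells. Cks2 was highest in mast cell or basophil-like cells, at 813.2 and 789.3 CPM (UMIs of the gene scaled to the UMI total of the summed class), where it gave 25.6% and 43.5% of the G2/M UMIs. Both libraries showed each of these shifts.

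Over all 22 G2/M members the highest class was most often the NK cell-like class, for 15 members in the heterozygous and 16 in the wild-type library. For S members it was the mast cell or basophil-like class, 9 of 13 and 10 of 13. Mki67, for example, reached 279.4 CPM in heterozygous and 166.7 CPM in wild-type NK cell-like cells. Next in order were the mast cell or basophil-like cells in the heterozygous library (265.8 CPM) and the Vcan monocyte-like cells in the wild type (145.6 CPM). Both classes are small, and in NK cell-like cells 3 heterozygous and 2 wild-type cells held at least 50% of the G2/M UMIs.

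**Figure D3:**
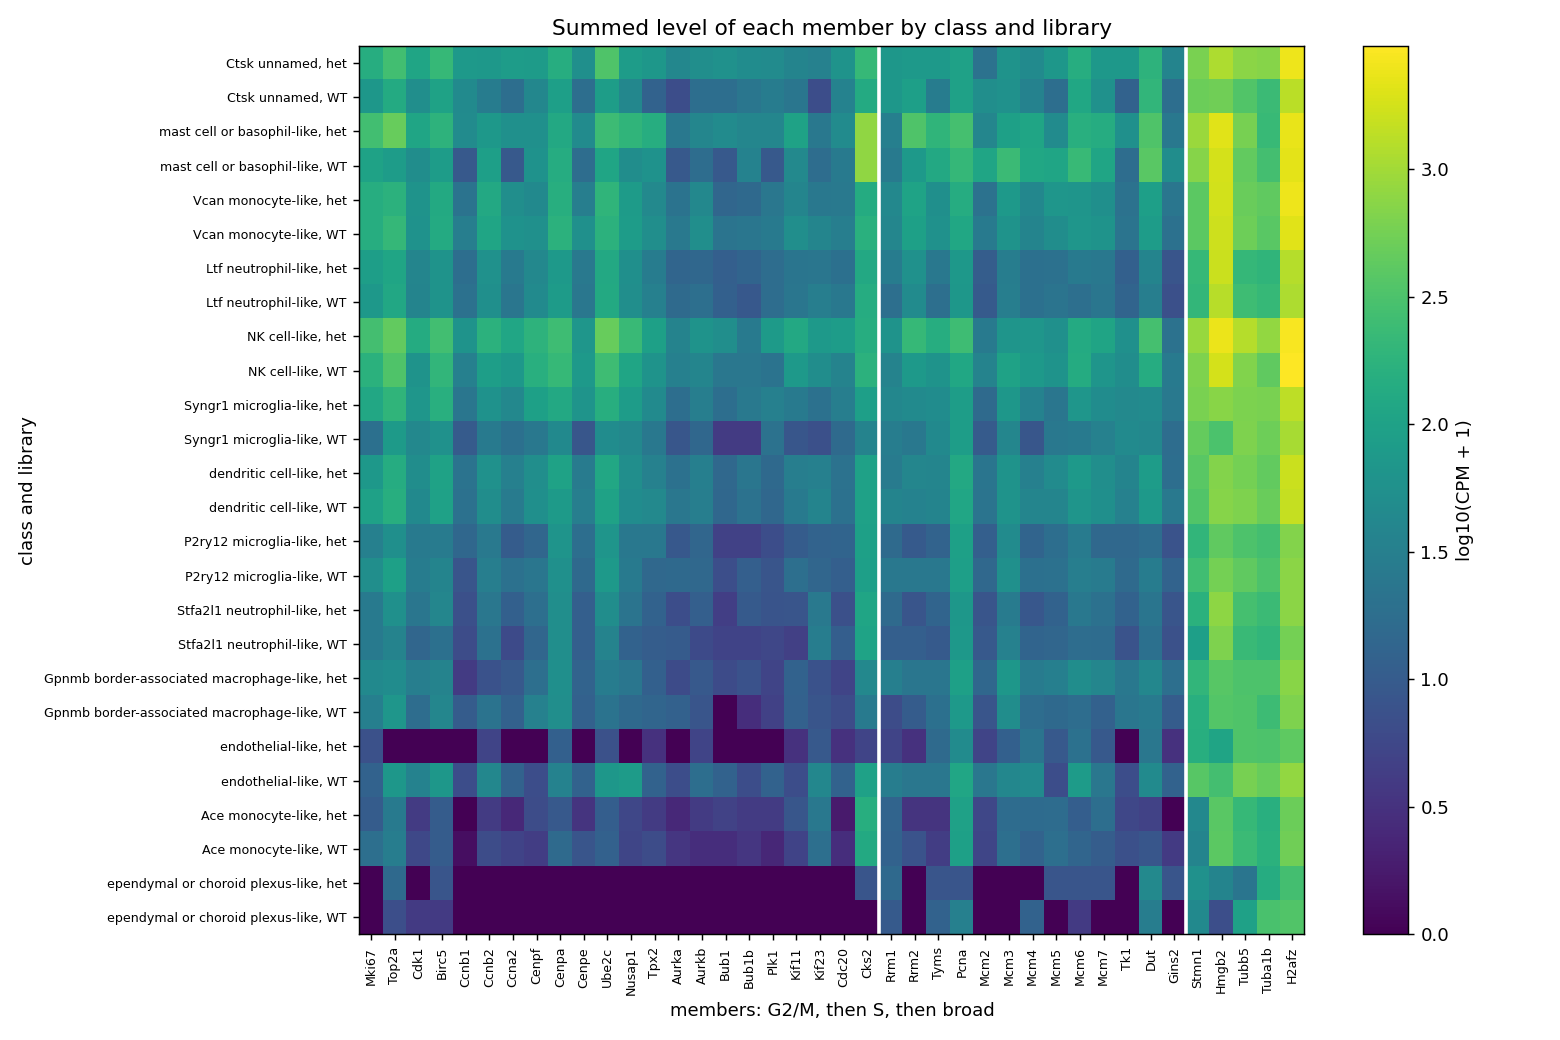
Level of each of the 40 members as log10(CPM + 1) of the UMIs summed per class and library, with members ordered as G2/M, S and broad. The NK cell-like rows are bright across the G2/M members. The Ace monocyte-like rows are dim except for Cks2, Pcna and the broad members other than Stmn1, which is lowest there (40.6 and 36.3 CPM).

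S and broad members, which did not define the dividing cells, were higher in them than in other cells of the same classes. Each fold compares the UMIs of dividing cells with those expected from the other cells class by class. The other cells include the 44 heterozygous and 51 wild-type cells with at least 3 S members but fewer than 3 G2/M members. At more than 1.5-fold in both libraries were 11 of 13 S members and 5 of 5 broad members, while 6.18% of 10074 genes were as much higher and 3.44% as much lower. In the heterozygous library alone 10.8% of genes were higher and 13.8% lower, and in the wild type 10.1% and 8.1%. Rrm2 was highest of the S members, 8.24-fold (heterozygous) and 9.73-fold (wild type), followed by the thymidine enzymes Tk1 (5.72 and 5.89) and Tyms (5.62 and 5.98) and by Rrm1 (4.64 and 4.45). The MCM members were lower, with Mcm7 at 2.42 and 2.93, Mcm5 at 2.13 and 2.40, Mcm3 at 1.91 and 1.51 and Mcm2 at 1.62 and 1.501. Dut was at 2.62 and 2.81, the helicase partner Gins2 at 3.20 and 1.53, and Pcna at 1.66 and 1.72. Mcm4 (1.46 and 1.69) and Mcm6 (1.84 and 1.42) passed in 1 library each. Among broad members, Stmn1, which destabilises microtubules, was at 7.01 and 6.93, the chromatin protein Hmgb2 at 3.97 and 4.15, the tubulins Tubb5 and Tuba1b at 4.06 and 3.73 and at 3.71 and 3.71, and the histone H2afz at 2.97 and 2.67. The median was 2.42 and 2.40 for S members and 0.972 and 1.00 for all genes. With at least 4 G2/M members as the definition, 7 S members passed in place of 11, and with at least 2 members 12 did.

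**Figure D4:**
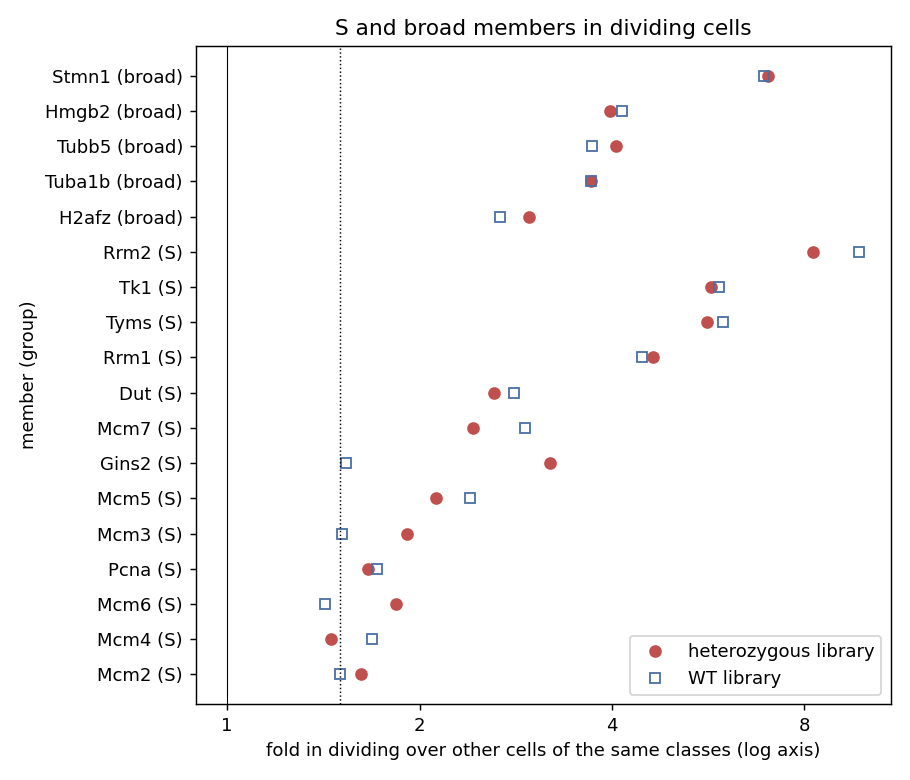
Fold of each S and broad member in dividing cells over other cells of the same classes (log axis), as filled circles for the heterozygous and open squares for the wild-type library, with a solid line at 1 and a dotted line at 1.5. Rrm2 and Stmn1 lie highest, and Mcm2, Mcm4 and Mcm6 lie near the dotted line, as do Mcm3 and Gins2 in the wild-type library.

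The wider cell cycle network was read in 8 further lists with 106 genes. Of 40 other proliferation genes, 38 were higher in dividing cells of both libraries, and Pttg1, the securin gene, was not (0.653 and 0.813). The mitotic transcription factor Foxm1 was at 11.4 and 24.9, with 3 of 6 genes counted in its MuvB list passing. Fbxo5, an inhibitor of the anaphase-promoting complex, was at 10.8 and 12.3, with 6 of 11 passing in that list, and the origin kinase subunit Dbf4 was at 5.18 and 5.20, with 7 of 13 passing among origin licensing genes. In the Rb and E2F families 4 of 12 passed, led by E2f8 (4.93 and 5.37), while Rb1 was at 0.847 and 0.814. Of G1 cyclins and kinases 4 of 8 passed, among them Ccne1 (2.49 and 3.51), and the D-type cyclins Ccnd1 (0.760 and 0.765) and Ccnd3 (1.05 and 1.08) did not. Of 5 CDK inhibitors counted, Cdkn2c (5.60 and 8.42) and Cdkn2d (1.85 and 1.53) passed and Cdkn1b did not (0.729 and 0.880). None of 5 antiproliferative BTG genes passed in either direction, with Btg1 at 0.598 and 0.703 and Btg2 at 0.547 and 0.756.

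Outside the 40 members, the 12 genes with the highest folds in both libraries are given as a description, since the cells were chosen for their G2/M members, and Kif22 is also in the list of other proliferation genes. They were Pif1 (31.1 and 34.6), Depdc1a (28.2 and 25.7), Cdc25c (27.6 and 38.1), Hist1h2af (38.1 and 24.7), Kif20a (24.2 and 27.8), Parpbp (23.3 and 37.7), Kif22 (22.8 and 25.5), Aspm (22.6 and 37.7), Kif18b (28.8 and 21.8), Prr11 (24.3 and 20.5), Kifc1 (20.1 and 25.6) and Cep55 (23.7 and 19.4). Kif20a, Kif22, Kif18b and Kifc1 encode mitotic kinesins, Cdc25c a phosphatase that activates Cdk1, and Aspm a spindle pole protein.

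Within each class the dividing cells were set beside the others for marker genes, of which Elane and Prtn3 were chosen after their values were seen. Over both libraries, the 50 dividing Vcan monocyte-like cells had Elane (neutrophil elastase) at 352.3 CPM and Prtn3 (proteinase 3) at 1121 CPM, against 26.0 and 226.7 in the 195 others, and Vcan itself at 154.6 against 253.5. Without shared barcodes Elane was 304.5 against 26.1 and Prtn3 845.5 against 226.9. The 62 dividing Ltf neutrophil-like cells had Elane at 125 CPM against 11.7 in 274 others, Camp at 28146 against 17935 and Ltf at 5148 against 5441, and Elane was 141.6 against 12 without shared barcodes. Their S members summed to 582.3 against 264.8 CPM. In the 14 dividing NK cell-like cells the granzyme gene Gzma was at 15150 CPM against 15179, with S members at 2121 against 700.6. Dividing dendritic cell-like cells had H2-Ab1 at 3764 against 3852 and S members at 1108 against 502.1. These sums compare cells within the 2 libraries and have no replicate.

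In both microglia-like clusters the dividing cells had less P2ry12 and more of the S members than the other cells. C1qa is given for the Syngr1 cells only, and Apoe, S100a8, Ly6c2 and Prtn3 for the P2ry12 cells only. No difference between the clusters is read from those genes. Dividing Syngr1 cells (32, against 179 others) had P2ry12 at 534.1 against 772.8 CPM, the complement gene C1qa at 6524 against 8280 and S members at 1077 against 328.8, at nearly the same depth (medians of 3865 and 3668 UMIs). Dividing P2ry12 cells (20, against 229 others) had P2ry12 at 642.1 against 986.6, S members at 660.8 against 312.2 and Apoe at 5265 against 13829. They also had more of other lineages' genes, with S100a8 at 1612 against 622.8, Ly6c2 at 202.6 against 59.5 and Prtn3 at 84.2 against 11.8, and the part of those genes in their members' levels was not tested. Dividing cells of the Stfa2l1 cluster likewise had S100a8 at 29417 against 48330, with medians of 88.3 against 32.6 C1q UMIs per 10000.

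Summed over all kept cells, the members were close between the libraries. None of the 40 was beyond 1.5-fold in either direction, while 8.81% of 12000 genes were beyond it as higher in the heterozygous library and 1.76% as lower. None was without the shared barcodes (10.1% of genes higher and 1.57% lower). With the dividing cells left out, which takes away most G2/M UMIs by construction, 1 was, Bub1 at 37 and 27 UMIs (9.57% higher and 1.81% lower). These sums mix classes that the libraries held in different proportions, and the part of class make-up was not tested. Ace monocyte-like cells were 197 of 1489 kept heterozygous and 438 of 1949 kept wild-type cells, and Gpnmb macrophage-like cells 173 and 68. Of the 40 members, 35 were at a ratio above 1, against 58% of all genes, and 5 below it (Aurka, Kif23, Cks2, Mcm2 and Tubb5). Without the shared barcodes 26 of the 40 were above 1, among them 12 of the 22 G2/M members in place of 19, against 56.9% of all genes. G2/M members summed to 925.4 CPM in the heterozygous and 837.1 in the wild-type library (ratio 1.11, 1.08 to 1.13). S members summed to 461 and 400.6 (ratio 1.15, 1.12 to 1.19). Without shared barcodes the G2/M ratio was 1.03 (1.00 to 1.05). With all kept cells, at least 50% of the G2/M UMIs lay in 39 heterozygous and 50 wild-type cells, and the counting intervals do not cover the spread between cells.

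The most abundant G2/M members were Cks2, at 114.4 CPM in the heterozygous and 118.2 in the wild-type library (ratio 0.969, 0.913 to 1.03), and Top2a, at 105.9 and 100.9. Ube2c was at 105.9 and 84.0 (1.26, 1.18 to 1.35), Cenpa at 77.2 and 71.6, and Mki67 at 70.6 and 61.6. Kif23 had the lowest ratio (22.0 and 26.5 CPM, 0.830, 0.727 to 0.947). Among S members Pcna was at 94.9 and 87.7 CPM, Dut, which removes dUTP, at 52.2 and 41.9, Mcm3 at 43.5 and 41.7, and Rrm2 at 42.0 and 33.2. Mcm6 had the highest ratio of all 40 (44.5 and 34.1 CPM, 1.31, 1.18 to 1.45). Among broad members H2afz was at 1203 and 1068 CPM, Hmgb2 at 964.6 and 845.8, Tubb5 at 362.7 and 369.2, Tuba1b at 312 and 289.6, and Stmn1 at 283.9 and 223.5 (1.27, 1.22 to 1.32). Other scalings of the libraries lowered all such log2 ratios by 0.07 to 0.09, which is a large part of these differences.

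**Figure D5:**
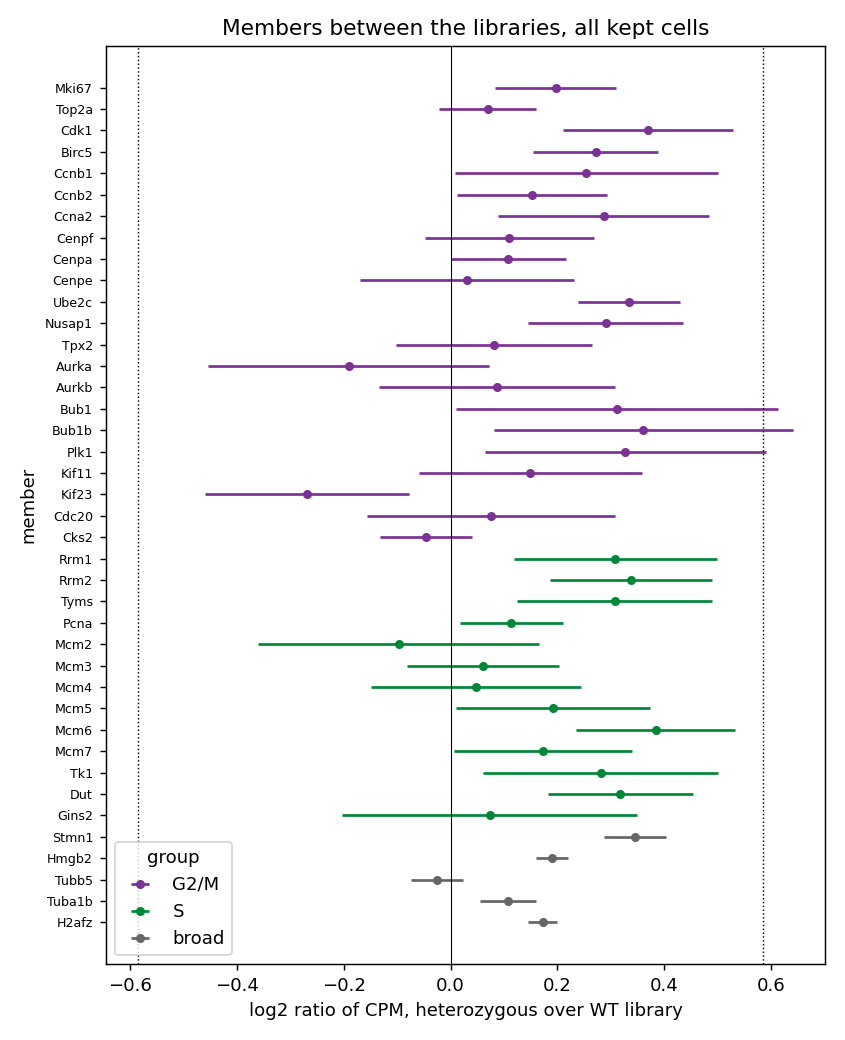
Log2 ratio of CPM, heterozygous over wild-type library, for each of the 40 members over all kept cells, with 95% exact intervals (counting error only) and colours for the 3 groups. Mcm6 lies highest at 0.38 and Kif23 lowest at -0.27, and no member passes 1.5-fold.

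The pathway lists also differed little between libraries. No gene passed 1.5-fold among 8 G1 cyclins and kinases (Ccnd3 188.5 and 222 CPM, Ccnd1 128.7 and 117), 13 genes of the Rb and E2F families (Rb1 47.1 and 52.6, Tfdp1 48.1 and 40.6), 7 MuvB genes (Rbbp4 108.5 and 99.4, Lin37 17.6 and 16.4) and 5 BTG genes (Btg1 1023 and 1206, Btg2 651.5 and 721.9). Higher in the heterozygous library were the CDK inhibitor Cdkn2b (2.17 and 1.08 CPM), the replication factors Cdc45 (8.99 and 5.15) and Gins1 (6.29 and 3.65), Fbxo5 (14.5 and 9.27) and the chromatin protein Hmgn2 (364.1 and 227.9).

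Within classes a wide gap between libraries was seen in Syngr1 microglia-like cells. Their G2/M members summed to 1505 CPM in the heterozygous and 545.5 in the wild-type library (ratio 2.76, 2.43 to 3.13), but 1 heterozygous cell gave 232 of 802 UMIs (28.9%) and 2 cells gave at least 50%, against 12 cells in the wild type. Without the top cell of each library the ratio was 2.28, and with equal weight per cell the log2 ratio was 0.51 in place of 1.46. Clustering without the cell filter gave 0.14. Mki67 was at 122 and 18.1 CPM (65 and 12 UMIs, with 32 of the 65 in 1 cell), Cenpf at 93.8 and 24.2, Ube2c at 152 and 48.4, and Top2a at 189.5 and 77.1. In this class 9 G2/M members were beyond 1.5-fold as higher, all 9 that reached 50 UMIs, with Cenpa, Birc5, Cks2, Nusap1 and Cdk1 at ratios of 2.87 to 1.66. The background was 9.48% of genes higher and 4.43% lower, and members reached 50 UMIs mainly through the heterozygous library, so the count is not read as a result. S members Mcm6 (67.6 and 25.7 CPM) and Mcm3 (69.4 and 39.3) and the broad member Hmgb2 (726.2 and 312.8) were also beyond it.

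In P2ry12 microglia-like cells G2/M members were lower in the heterozygous library, 551.3 against 660.5 CPM (ratio 0.835, 0.766 to 0.909), but not without the shared barcodes (1.09, 0.997 to 1.20). S members were at 294.8 and 380.1 CPM (0.775), and at 0.765 without shared barcodes. Beyond 1.5-fold as lower were Rrm2 (8.63 and 23.5 CPM), Tyms (11.7 and 24.0), Mcm7 (14.2 and 27.4), Dut (16.7 and 28.4), Rrm1 (14.8 and 24.0) and Mcm4 (12.3 and 18.6) of the S members, and Ccna2, Kif11, Top2a, Cenpf and Mki67 of the G2/M members, at ratios of 0.485 to 0.630. Tpx2 was higher (24.1 and 14.2). The background here was 3.17% of genes higher and 3.02% lower. In all 11 members were lower, and 5 without the shared barcodes. Ccna2 (15 heterozygous and 39 wild-type UMIs), Kif11 (15 and 36), Rrm2 (14 and 48) and Mcm4 (20 and 38) reached the UMI minimum mainly through the wild-type library. The count of 11 is therefore not read as a result. Top2a (87 and 195 UMIs) and Mki67 (52 and 104) passed that minimum in each library alone. This does not address the shared barcodes, and their own ratios without these are not given here. The top heterozygous cell for Rrm2 gave 8 of its 14 UMIs, and that for Ccna2 gave 7 of 15. The lower G2/M members had 15 to 195 UMIs per library, and coarser clustering turned the S ratio (log2 of 0.11 in place of -0.37).

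Gpnmb macrophage-like cells had equal G2/M sums (410.3 and 408.9 CPM), with 57.9% of the wild-type UMIs in 1 cell, while their S members were at 481 and 280.6 CPM (ratio 1.71, 1.44 to 2.05), and at 1.38 without shared barcodes. Mcm6 (49.9 and 16.5 CPM) and Mcm7 (38.6 and 11) were beyond 1.5-fold, as were Rrm1 (52 and 3 UMIs, ratio 5.61, 1.82 to 28.1), Mcm5, Mcm4, Dut, Cdk1 and Cks2 (ratios of 2.11 to 1.57), with 7.34% of genes higher and 7.72% lower. Without shared barcodes 5 members were higher in place of 8. In NK cell-like cells G2/M members were at 3440 and 2281 CPM, and 8 of them (Cdk1, Nusap1, Ccnb2, Ube2c, Kif11, Mki67, Ccna2 and Tpx2) were higher at ratios of 2.25 to 1.52. Of S members Rrm2 (215.2 and 76.0 CPM), Tyms, Pcna, Dut and Mcm7 were higher there and Mcm3 lower (64.2 and 99.4), and Tuba1b and Tubb5 were higher, with backgrounds of 9.43% and 7.74%. In the Gpnmb, NK and Ctsk classes too, members reached 50 UMIs mainly through the heterozygous library, and these counts are likewise not read as a result.

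In the other classes members passed in either direction or not at all. Vcan monocyte-like cells had 1577 and 1761 CPM of G2/M members, with Cenpe (30.1 and 55.4), Bub1, Kif23 and Bub1b lower (ratios of 0.542 to 0.660), at backgrounds of 3.2% higher and 3.76% lower, and 1 member was lower without shared barcodes. Ltf neutrophil-like cells had 1001 and 1033 CPM, with Rrm1 (28.0 and 17.5), Mcm6 (26.6 and 17.5) and Bub1b (12.4 and 8.22) higher, at backgrounds of 2.15% higher and 3.9% lower. Stfa2l1 neutrophil-like cells had 525.4 and 426.9 CPM, with Birc5 (38.2 and 18.0), Stmn1 (164.6 and 90.6), Nusap1, Cdk1, Tk1 and Top2a higher and Cdc20, Aurka and Mcm4 lower, at 3.41% and 4.86%, and without shared barcodes 4 were higher and 0 lower. Ace monocyte-like cells had 285.7 and 280.6 CPM, with Mki67 (9.19 and 17.4) and Cenpa (8.43 and 14.9) lower, at 2.52% higher and 3.05% lower. In Vcan cells Bub1 (17 and 44 UMIs) and Bub1b (19 and 46) reached the UMI minimum mainly through the wild-type library. So did Aurka (13 and 38), Cdc20 (14 and 42) and Mcm4 (18 and 51) in Stfa2l1 cells. Mki67 (12 and 48 UMIs) and Cenpa (11 and 41) did so in Ace cells. The counts of lower members in these classes are likewise not read as a result. No member passed in dendritic cell-like cells (1139 and 1115 CPM of G2/M members), where 4.16% of genes were higher and 3.53% lower, and 3 were lower without shared barcodes. In the small mast cell or basophil-like class Top2a (469.1 and 84.0 CPM) and Rrm2 (328.4 and 75.6) were higher, with 61.3% of the heterozygous G2/M UMIs in 1 of its 10 cells and backgrounds of 10.5% and 12.1%. In the endothelial-like class Stmn1, Hmgb2, Tubb5 and H2afz were lower (ratios of 0.386 to 0.571), with 80% of the wild-type G2/M UMIs in 1 cell and backgrounds of 14.6% and 9.68%. In the Ctsk cluster 16 members were higher (5 without shared barcodes), with 46.9% of the heterozygous G2/M UMIs in 1 cell and backgrounds of 17.9% and 9.5%, and in the choroid plexus-like class Tuba1b was lower (144.2 and 304.6 CPM, backgrounds of 4.16% and 15.4%), both classes being made mostly of shared barcodes.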

How the data were processed

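Cells from 2 libraries, 1 per genotype label, were profiled with the 10x Genomics 3′ kit (v3.1, per the labels' protocols). The authors deposited raw counts of UMIs per gene and barcode, made with Cell Ranger 4.0 and mm10 per the submitters' processing notes. Version 5.0.0 stands in the matrices, per the file headers, and which made the counts was not settled. Members, lists and marker lists were chosen with earlier results of these data known. Kept cells (500 or more genes, mitochondrial UMIs below 10%) were clustered together in scanpy 1.11.5 without the members and cell cycle lists (10000 UMIs per cell, 2000 variable genes, 30 components, 15 neighbours, Leiden by igraph 0.11.9, resolution 0.5, seed 0). Scrublet called 0 doublets, its thresholds (0.0885 and 0.128) lying above the highest scores (0.0765 and 0.0756), so none was removed. A cluster was named with at least 3 markers of its type and more of them than of any other type among its 10 leading genes.

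UMIs were summed per class and library and scaled to the UMI total of that sum (CPM). CPM carry exact Poisson, ratios exact conditional binomial and shares exact Clopper-Pearson intervals (95%, scipy 1.17.1, Python 3.11.15). Folds between libraries were counted at 50 or more UMIs over both. A fold in dividing cells divides their UMIs by those expected from the other cells of each class. Named genes were the 5 members with most UMIs per group, members beyond 1.5-fold in a class, up to 4 genes of a pathway list beyond 1.5-fold or its 2 most abundant, and 12 others highest in dividing cells; other genes were named after their values were seen. The computation was checked on simulated data. Alternatives were other cell filters, thinning depths and seeds, member numbers, UMI minimums, clusterings, median-of-ratios and TMM scaling (edgeR 4.0.16, R 4.3.3), all cells weighted equally, and leaving out shared barcodes or dividing cells.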

Additional observations from a re-analysis of the deposited data

Results flagged for a closer look

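The summed members moved in opposite directions between the libraries in different classes, and the difference between classes was not tested. For G2/M members the log2 ratio of the heterozygous over the wild-type library was 1.46 in Syngr1 microglia-like cells and -0.26 in P2ry12 microglia-like cells. For S members it was 0.78 in Gpnmb macrophage-like cells and -0.37 in P2ry12 microglia-like cells. For broad members (Stmn1, Hmgb2, Tubb5, Tuba1b and H2afz) it was 0.40 in Syngr1 cells and -0.29 in P2ry12 cells. Each value comes from 1 library per genotype. Without shared barcodes the G2/M value of P2ry12 cells was 0.13, and with finer clustering it was 0.14, so the opposite directions of the G2/M members were not seen under either setting. In Syngr1 cells the G2/M value was 0.51 with equal weight per cell and 0.14 when clustered without the cell filter, and the broad value was -0.05 and -0.09 under these settings. Coarser clustering gave 0.11 for the S members of P2ry12 cells.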

How the results depend on the processing

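No paired analysis was possible because each genotype had 1 library and no result came from a test across samples. The share of dividing cells (heterozygous, then wild type) was 7.84% and 6.77% when cells were thinned to 1000 UMIs, 25.7% and 22.5% without thinning, 16.3% and 14.7% at 2 or more G2/M members, and 8.31% and 7.37% at 4 or more. The share with S members was 2.40% and 2.34%, 24.6% and 24.3%, 12.9% and 12.5%, and 4.56% and 2.86% under the same settings. Over all kept cells, the log2 ratio of G2/M members was 0.074 with TMM, 0.058 with median-of-ratios scaling, 0.28 with equal weight per cell and 0.036 without shared barcodes, against 0.14. For S members it was 0.13, 0.12 and 0.11 under the first 3 of these, against 0.20. For broad members it was 0.091, 0.075, 0.13 and 0.10, against 0.16. With dividing cells left out, 1 member, Bub1, was beyond 1.5-fold (37 and 27 UMIs, log2 ratio 0.79). With equal weight per cell the log2 ratio turned in the Ctsk cluster for G2/M (-0.27) and broad members (-0.10) and in the mast cell or basophil-like class for G2/M members (-0.16). The cause of these changes was not tested. Of the summed ratios over classes and all kept cells under all alternatives, 270 stayed within their counting interval (20 with a changed sign), 110 moved beyond it (26 with a changed sign), and 3 that had been beyond 1.5-fold turned. Alternatives that left out the cell with most member UMIs, reclustered cells for the shares by class, or redefined dividing cells for S and broad members were chosen after seeing the data. Classes with few cells are limited by the number of cells, since 1 or 2 cells can hold at least 50% of their member UMIs.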

Other observations

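Cell marks of sex differed between the libraries among dividing cells as among others. Of the 136 dividing heterozygous cells 106 had Xist and no Y-linked transcript and 4 had Y-linked transcripts alone, and without shared barcodes none of 109 had Y-linked transcripts alone. Of the 165 dividing wild-type cells 82 had Y-linked transcripts alone, 21 had Xist alone, 25 had both and 37 had neither. Among other wild-type cells the counts were 662, 174, 144 and 498. The labels used here give no sex for donors or recipients.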
